A study of Rattus norvegicus with 6 samples.

Results

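The 7 genes described here belong to the TGF-beta system and were followed in rat oligodendrocyte progenitor cells (OPCs) given fibrinogen. They are the 3 ligand genes Tgfb1, Tgfb2 and Tgfb3, and Ltbp2, Pmepa1, Tgfbi and Ccn1, which code for matrix and signaling proteins tied to the pathway. They were taken by name, each through its brightest probe set with a single gene symbol, and all 7 were among the 13355 genes measured. Expression was read on Affymetrix rat arrays from 3 samples labelled as fibrinogen-treated for 48 h and 3 labelled as unstimulated (control) with the same 48 h in their titles. The cells were primary OPCs, the dividing glial cells that form myelinating oligodendrocytes, isolated from rat pups of postnatal day 1 to 2 and then allowed 2 days of recovery with PDGF and NT3, growth factors for OPCs, in their medium. Fibrinogen, the clotting protein of blood plasma, was given in differentiation medium, whereas the medium of the control cultures and the dose of fibrinogen are not stated in the labels. The series as a whole asks, by its title, whether fibrinogen switches on BMP signaling in these cells. The BMPs and the TGF-betas are branches of a single ligand superfamily. Nothing in the labels says whether the arrays of a group came from separate cultures or animals, so p-values measure the spread between these samples, which may be technical.

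TGF-beta ligands are secreted as precursors that are cut by furin-like proteases and then held inactive by their own propeptide, usually anchored to the matrix by a latent TGF-beta binding protein. Integrins that contain the alpha V chain release the ligand, which joins the receptors TGFBR2 and TGFBR1. These activate SMAD2 and SMAD3, which enter the nucleus with SMAD4 and act on target genes. In the brain the pathway is known for its part in astrocyte reactivity and in the maturation of oligodendrocyte progenitors.

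Of the 7 genes, Pmepa1 and Ccn1 rose with fibrinogen, Tgfb2 fell, and Tgfb1, Tgfb3, Ltbp2 and Tgfbi did not pass an adjusted p of 0.05 in limma. Among all genes tested, 4.16% were called higher and 3.0% lower, 7.16% in all. All 3 changes were over 2-fold, and by the size of the log2 fold change Pmepa1 ranked 7 among the rises and Tgfb2 ranked 7 among the falls of all 13355 genes, with Ccn1 at rank 20 of the rises. These arrays read RNA from whole cultures, in which a smaller share of cells that express a gene and less RNA per cell cannot be told apart.

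**Figure D1:**
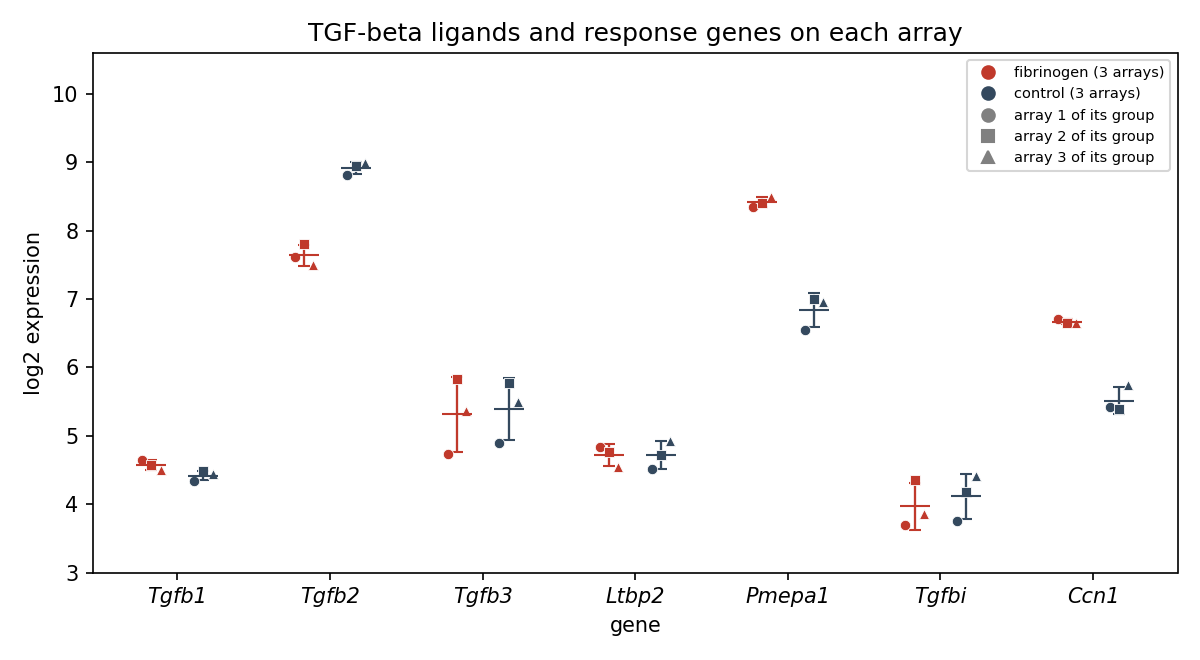
Log2 expression of the 7 genes on each of the 3 fibrinogen arrays (red, left) and 3 control arrays (dark, right). Marker shape gives the array number within its group, the horizontal dash is the group mean and the bar its SD. The groups lie apart for Tgfb2, Pmepa1 and Ccn1, and by a narrow margin for Tgfb1.

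Tgfb2, the ligand gene that changed, codes for a TGF-beta isoform with prominent roles in development. Its probe set (10770577, rat gene 81809, chromosome 13) read a log2 expression of 7.62, 7.80 and 7.50 on the fibrinogen arrays and 8.82, 8.94 and 8.99 on the control arrays. Every fibrinogen array lay more than 1 log2 unit below every control array. The fall came to 2.42-fold (log2 fold change -1.28, SE 0.10, 95% interval -1.51 to -1.04, adjusted p = 0.00166 in limma). In control cultures the Tgfb2 probe set was brighter than 88.7% of the valued probe sets, and the 2.42-fold fall was thus measured from a bright signal.

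Tgfb1, the isoform best known from immune control and fibrosis, stood near the dim end of the arrays. Its probe set (10705213, gene 59086, chromosome 1) read 4.64, 4.57 and 4.50 with fibrinogen and 4.34, 4.48 and 4.44 in control, on the log2 scale. The groups did not overlap, but the gap between them was 0.02, and non-overlapping groups were found for 27.0% of all genes. The log2 fold change of 0.15 (SE 0.08, adjusted p = 0.344) had a 95% interval of -0.04 to 0.34, with a 1.26-fold rise at its upper end. Only 25.1% of probe sets were dimmer in control. Detection calls do not come with these values, and whether Tgfb1 lay above background is unknown.

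Tgfb3, the ligand isoform known from palate and heart development, varied more between the arrays of a group than any other gene of the 7. Its probe set (10891303, gene 25717, chromosome 6) read 4.74, 5.83 and 5.37 in fibrinogen cultures and 4.89, 5.78 and 5.49 in control cultures. The lowest value in each group came from array 1, the highest from array 2, and the groups overlapped fully. The SD was 0.55 with fibrinogen and 0.45 in control (n = 3 each), against a median SD over all genes of 0.106 and 0.127. The log2 fold change was -0.07 (SE 0.31, 95% interval -0.81 to 0.66), an interval from 0.571-fold to 1.58-fold of the control level.

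The changes of the ligand genes were also compared with each other, as the difference of log2 values between a pair of genes on each array. Tgfb2 minus Tgfb1 was 2.98, 3.23 and 3.00 on fibrinogen arrays and 4.48, 4.46 and 4.55 on control arrays, a shift of -1.43. Tgfb2 minus Tgfb3 shifted by -1.20, with averages of 2.33 ± 0.49 in fibrinogen and 3.53 ± 0.39 in control cultures (SD, n = 3 each). For both pairs the groups did not overlap, and the two-sided exact permutation p was 0.1, the smallest that 3 arrays against 3 allow (0.15 after Benjamini-Hochberg adjustment over the 3 pairs). Tgfb3 minus Tgfb1 shifted by -0.22, with overlapping groups (exact permutation p = 0.6, also 0.6 adjusted). These numbers compare how the genes changed, not how abundant the ligands are, since the probe sets differ in brightness.

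Ltbp2 belongs to the latent TGF-beta binding proteins by its sequence, but it is a microfibril protein that is not known to bind the latent ligand. Its probe set (10891165, gene 59106, chromosome 6) read 4.84, 4.77 and 4.54 with fibrinogen and 4.51, 4.72 and 4.93 in control. The arrays of the groups were interleaved, and the mean was 4.72 ± 0.16 with fibrinogen and 4.72 ± 0.21 in control (SD, n = 3 each). The log2 fold change was -0.003 with a 95% interval of -0.31 to 0.30, or 0.807-fold to 1.23-fold of the control level.

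Around Ltbp2, 26 genes of latency and activation were listed and 21 measured, of which 5 rose, none fell and 16 did not pass. That is 23.8% called, with a median log2 fold change of 0.10, against 7.16% and 0.003 over all genes. This list and those below were written with earlier results of these data known, and some share genes. A share called above that of all genes is therefore not independent support. Ltbp4, a binding protein that holds latent TGF-beta 1 in the matrix, rose by 0.69 (SE 0.11, adjusted p = 0.0119), while Ltbp1, the best studied of these anchors, was at 4.67 with fibrinogen and 4.67 in control on the log2 scale. Itgb8 and Itgb5 code for integrin chains that pair with alpha V and can free the ligand. Both passed, Itgb8 with a log2 fold change of 0.47 (adjusted p = 0.0450) and Itgb5 with 0.80 (adjusted p = 0.0292). Itgb8 read 8.72, 8.64 and 8.63 on fibrinogen arrays and 7.97, 8.32 and 8.28 on control arrays. Plat, tissue plasminogen activator, rose by 0.56 (adjusted p = 0.0411). Bgn (biglycan, a matrix proteoglycan that can bind TGF-beta) showed the largest rise in the list, 4.25-fold (adjusted p = 0.00162). The furin gene, picked after its value was seen, was at -0.04 on the log2 scale and did not pass (adjusted p = 0.847). The call of Ltbp4 was lost in 4 of 15 alternatives, that of Itgb5 in 7 and that of Plat in 9. That of Itgb8 was lost in 10, including whenever a single array was left out. Only 1 member was called without fibrinogen 1 or without fibrinogen 3, 2 without control 1 or control 3, and 3 without fibrinogen 2. The alpha V gene Itgav and Thbs1, an activator of latent TGF-beta, were not analysed here.

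Of 29 listed receptors and signal transducers 24 were measured, 1 rose, 1 fell and 22 did not pass. The share called, 8.33%, was close to the 7.16% of all genes, and the median log2 fold change was -0.06. Tgfbr3, or betaglycan, the co-receptor that presents TGF-beta 2 to the signaling receptors, fell 1.64-fold. It read 7.79, 7.57 and 7.63 in fibrinogen cultures and 8.39, 8.41 and 8.34 in control cultures (log2 fold change -0.72, SE 0.08, adjusted p = 0.00477). Both the ligand gene Tgfb2 and the co-receptor gene Tgfbr3 were lower on every fibrinogen array than on every control array. Groups that do not overlap were found for 27.0% of all genes, and a link between the changes of Tgfb2 and Tgfbr3 was not tested. Tgif1, a nuclear corepressor of SMAD2 and SMAD3, rose 1.59-fold (adjusted p = 0.0125). Its call was lost in 2 of 15 alternatives, including without fibrinogen 1 (adjusted p = 0.0562). Without fibrinogen 1 the list thus held 1 called gene.

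None of the core genes measured passed the test. Tgfbr1, the signaling receptor kinase, read 7.37, 7.21 and 7.29 with fibrinogen and 7.40, 7.86 and 7.49 in control (log2 fold change -0.29, 95% interval -0.60 to 0.01, adjusted p = 0.252). Smad2 was at -0.09 (95% interval -0.27 to 0.09) and Smad3 at -0.02 (95% interval -0.24 to 0.20). Smad7, the inhibitory SMAD that TGF-beta and BMP both induce, was at 0.08 with a wider interval of -0.33 to 0.49. Tgfbr2 and Skil, a TGF-beta induced corepressor, were not analysed here.

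**Figure D2:**
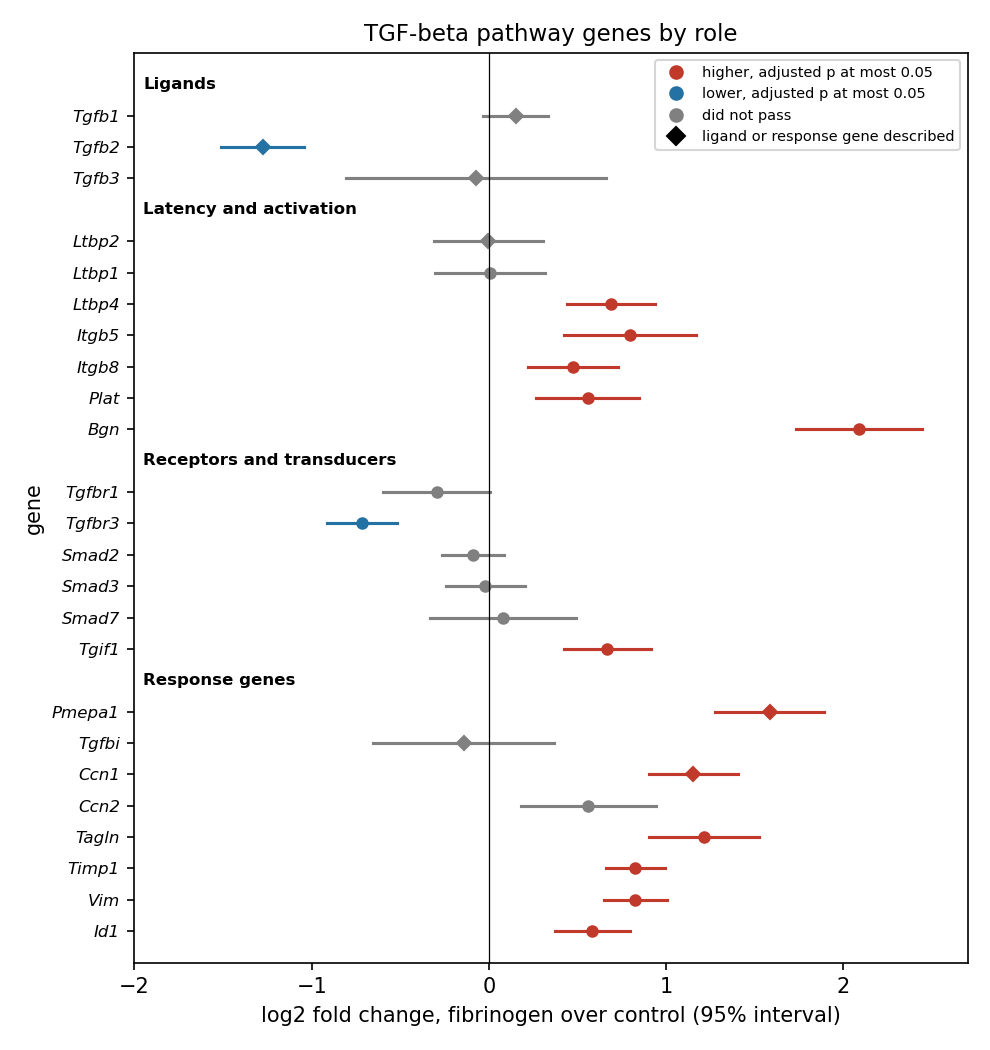
Log2 fold change, fibrinogen over control, with its 95% interval for the 7 genes, the fixed pathway genes and the called genes of smallest p in each role. Most listed genes that did not pass are not drawn, so the share called cannot be read from it. Diamonds mark the 7 genes described, red and blue mark genes called higher and lower, and grey those that did not pass. Tgfb2 and Tgfbr3 lie on the left at -1.28 and -0.72, and Bgn and Pmepa1 lie farthest to the right at 2.09 and 1.58.

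Pmepa1, whose product sits in internal membranes and holds SMAD2 and SMAD3 away from the receptor, is a TGF-beta target and a brake on the pathway. Its probe set (10852144, gene 311676, chromosome 3) read 8.35, 8.41 and 8.50 on fibrinogen arrays and 6.55, 7.0 and 6.96 on control arrays. All fibrinogen values lay above all control values by at least 1.35 log2 units. The rise was 3.00-fold (log2 fold change 1.58, SE 0.13, 95% interval 1.28 to 1.89, adjusted p = 0.00166). Control arrays spread more than fibrinogen arrays (SD 0.25 in control, 0.08 with fibrinogen), with control 1 the lowest. Without control 1 the change was still 1.44.

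Ccn1, formerly Cyr61, codes for a matrix-associated protein that binds integrins. It is an immediate early gene that TGF-beta, serum response factor (SRF) and the YAP-TEAD factors are all known to induce. Its probe set (10827231, gene 83476, chromosome 2) read 6.71, 6.65 and 6.65 with fibrinogen and 5.42, 5.39 and 5.74 in control. The fibrinogen values were nearly equal to each other and stood 0.91 or more above the highest control value. The rise was 2.22-fold (log2 fold change 1.15, SE 0.11, 95% interval 0.90 to 1.41, adjusted p = 0.00254).

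Tgfbi, named for its induction by TGF-beta, codes for a secreted matrix protein with fasciclin domains. Its probe set (10797138, gene 116487, chromosome 17) read 3.70, 4.36 and 3.85 in fibrinogen cultures and 3.75, 4.18 and 4.41 in control cultures. The groups overlapped, and the log2 fold change was -0.14 (SE 0.22, 95% interval -0.65 to 0.37, adjusted p = 0.771). Only 18.8% of probe sets were dimmer in control, so Tgfbi was the dimmest of the 7 genes on these arrays.

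Among 30 measured of 38 listed response genes outside the 7, 9 rose, none fell and 21 did not pass. The share called was 30.0% and the median log2 fold change 0.16, against 7.16% and 0.003 over all genes, for a list written with earlier results known. The rises with the smallest p were Timp1 (an inhibitor of metalloproteases, 1.77-fold, adjusted p = 0.00187), Vim (the intermediate filament vimentin, 1.77-fold, adjusted p = 0.00216) and Tagln (the actin-binding protein transgelin, 2.32-fold, adjusted p = 0.00392). Id1, a differentiation inhibitor that BMPs induce more strongly than TGF-betas, rose 1.5-fold (adjusted p = 0.0120). Its call was lost in 2 of 15 alternatives, including without fibrinogen 3 (adjusted p = 0.0539). The other 5 were Tgif1, described above, and the smooth muscle calponin gene Cnn1, the tropomyosin gene Tpm1, the basement membrane collagen gene Col4a1 and the fibronectin gene Fn1. These last 4, named after their values were seen, had log2 fold changes of 0.42 to 1.20. The fibrillar collagen genes Col1a1, Col1a2 and Col3a1, classical TGF-beta targets of fibroblasts that were also picked afterwards, were at 0.04, 0.02 and -0.01 and did not pass. The count was 5 without fibrinogen 2, and 6 without fibrinogen 1 or fibrinogen 3.

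Lists of cell type markers were read beside these response genes. Of 9 astrocyte markers 8 were measured, 3 rose (Gfap, Slc1a2 and Slc1a3) and 5 did not pass, 37.5% called against 7.16% of all genes. The other 5 (Aqp4, Gja1, S100b, Aldoc and Gjb6, picked after their values were seen) had log2 fold changes of -0.24 to 0.04, and the list median was -0.02. Summed over the list, the linear signal was 4701 to 4743 on fibrinogen arrays and 3374 to 3593 on control arrays. Of 12 pericyte and fibroblast markers 11 were measured, of which 2 rose, Mgp and Cspg4 (which is also an OPC marker), and 9 did not pass (18.2% called). These 9 had log2 fold changes of -0.42 to 0.04, and the list median was -0.01. The summed signal was 728 to 796 with fibrinogen and 527 to 545 in control, and 9 of the 11 markers were dimmer than the median probe set in control. This sum includes the 2 called genes, Mgp (mean log2 value 7.25 with fibrinogen, 5.66 in control) and Cspg4 (8.50 and 7.87). Of 8 neuronal markers, all measured, 2 rose (Elavl4 by 0.90 and Stmn2 by 0.38 on the log2 scale). Another 2 had negative changes that passed (Syt1 at -1.16 and Elavl3 at -0.37), 50% called. The other 4 (Tubb3, Rbfox3, Snap25 and Gad1) had log2 fold changes of -0.26 to 0.07 and did not pass. Of 5 measured Schwann cell markers 1 was called, Pmp2 at -1.18, too few markers to set against the 7.16% called over all. Of 10 microglial markers 8 were dimmer than the median probe set in control. Only Itgam was called, lower at -0.60, which is 10% called, close to the 7.16% of all genes. The Itgam probe set was itself dim, with only 11.2% of probe sets dimmer in control. None of the 5 measured endothelial markers, all dim, was called. The part of these cells in the changes of Pmepa1, Ccn1 and the response genes was not tested. For the labelled cell type, all 7 measured of 8 OPC markers were brighter than the median probe set in control. Of these, 5 rose (Pdgfra, Cspg4, Olig1, Cspg5 and C1ql1), 71.4% called against 7.16% of all genes. Sox10 and Gpr17 had log2 fold changes of -0.09 and -0.14 and did not pass. Of 7 measured mature oligodendrocyte markers 4 fell (Mbp, Mag, Cnp and Cldn11, 57.1% called) and 3 did not pass. The sum over this list was 7070 to 7711 with fibrinogen and 9818 to 10440 in control.

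Of the other 5 CCN genes 4 were measured and none passed the limma threshold, too few genes to set against the 7.16% called over all. Ccn2, the connective tissue growth factor gene and also a TGF-beta and YAP target, had the smallest p. Ccn2 read 6.27, 6.13 and 5.96 with fibrinogen and 5.51, 5.28 and 5.89 in control. The groups were separate, by 0.07, and the log2 fold change was 0.56 (SE 0.16, 95% interval 0.18 to 0.94, adjusted p = 0.0946). It passed without control 3 (adjusted p = 0.0409) and with an intensity trend in the variance prior (adjusted p = 0.0336). At an unadjusted p under 0.05, 1 of the 4 counted, Ccn2. That Ccn1 rose more than Ccn2 was not tested.

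YAP-TEAD and SRF target genes, a class to which Ccn1 also belongs, had 20 of 24 members measured, of which 6 rose, 1 fell and 13 did not pass (35.0% called against 7.16% of all genes, median log2 fold change 0.09). F3 (tissue factor, the starter of coagulation) read 9.28, 9.37 and 9.50 with fibrinogen and 8.53, 8.47 and 8.58 in control, a 1.81-fold rise (adjusted p = 0.00313). Egr1, an immediate early transcription factor with SRF sites, rose 1.70-fold (adjusted p = 0.00477), and Dlc1, a tumour suppressor gene, fell 1.56-fold (adjusted p = 0.00910). Tagln, Cnn1 and Tpm1 count both here and among the TGF-beta response genes. Ankrd1 and Amotl2, YAP targets picked afterwards, were at -0.07 and 0.03 on the log2 scale and did not pass. Only 8.12% of probe sets were dimmer in control than that of Ankrd1, which limits what its missing change can show. The count was 4 without fibrinogen 2.

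Matrix proteins related to Ltbp2 and Tgfbi were listed as well. Of 14 measured fibrillin, LTBP, fibulin, microfibril and fasciclin genes, 3 rose (Ltbp4, Fbln2 and Mfap4), none fell and 11 did not pass (21.4% called against 7.16% of all genes, median log2 fold change 0.23). Fbln2, a fibulin of elastic fibres, rose 2.14-fold (adjusted p = 0.00166). Mfap4, a microfibril-associated protein, averaged 6.35 ± 0.07 with fibrinogen and 4.75 ± 0.46 in control (SD, n = 3 each, adjusted p = 0.00671). The call of Mfap4 was lost in 1 of 15 alternatives. Postn, the fasciclin relative of Tgfbi and likewise a TGF-beta target, picked after its value was seen, was at -0.42 and did not pass (adjusted p = 0.0772). In the activin and nodal branch, 11 of 15 genes were measured and 1 rose, Fstl1 (a secreted follistatin-like protein, log2 fold change 0.36, adjusted p = 0.0351), a call that ended without any single array. That is 9.09% called, close to the 7.16% of all genes.

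**Figure D3:**
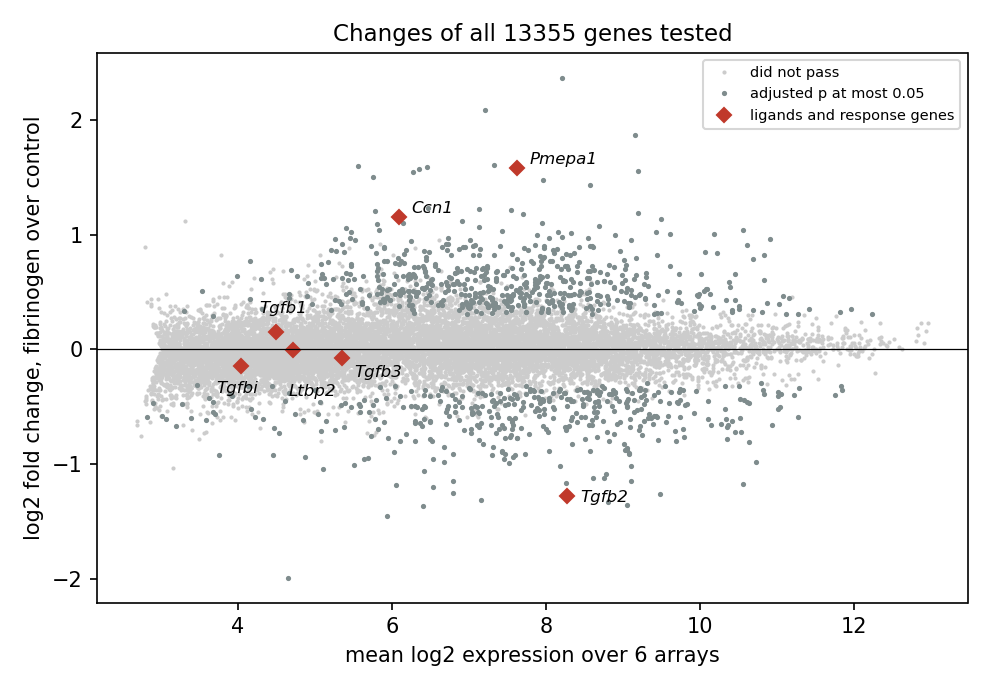
Log2 fold change, fibrinogen over control, against the mean log2 expression over 6 arrays for all 13355 genes. Dark points passed an adjusted p of 0.05 in limma, and red diamonds mark the 7 genes. Pmepa1 and Ccn1 lie at the upper edge and Tgfb2 at the lower edge, while the other 4 lie in the dense band near 0.

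For each gene that changed, the 3 genes with the most similar profile were found, by the root mean square distance between log2 profiles over the 6 arrays after centring each on its own mean. Since the arrays fall into groups, a small distance mostly reflects a change of the same size. Papss2 (which makes the sulfate donor PAPS), Pnkd and Slc6a6 (the taurine transporter) lay closest to Tgfb2, at 0.071, 0.081 and 0.094. Papss2 read 6.41, 6.69 and 6.39 with fibrinogen and 7.83, 7.80 and 7.80 in control. Its highest fibrinogen array was number 2, as it was for Tgfb2. The 2 probe sets of Pnkd fell alike, by 1.36 and 1.35.

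Closest to Pmepa1 were Metrn (meteorin, a secreted factor of glial cells), the homeobox gene Dbx2 and Hspb1 (a small heat shock protein), at 0.084, 0.10 and 0.143. Metrn read 9.22, 9.32 and 9.31 with fibrinogen and 7.61, 8.0 and 7.94 in control. Like Pmepa1 it had its lowest value in control 1. Closest to Ccn1 were Mfge8 (a secreted integrin-binding protein), Grm5 (a glutamate receptor) and S100a10 (an annexin partner), at 0.113, 0.116 and 0.117.

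The promoters of the 3 genes that changed, and of Ltbp2 as one that did not, are shown because SMAD proteins bind short motifs that can be searched in them. The sequences are RefSeq's on the rat assembly GRCr8, from 220 bases before the annotated transcript start to 20 bases from it on, 5′ to 3′ on the gene's strand. All 7 genes matched the table by symbol. Capitals mark the SMAD box CAGAC, the GC-rich SMAD site GGCGC, the AP-1 site TGANTCA, the cyclic AMP response element (CRE) half-site TGACG, the TEAD site GGAATG and the CArG box, the SRF site, each on either strand. Overlapping matches run together.
Pmepa1: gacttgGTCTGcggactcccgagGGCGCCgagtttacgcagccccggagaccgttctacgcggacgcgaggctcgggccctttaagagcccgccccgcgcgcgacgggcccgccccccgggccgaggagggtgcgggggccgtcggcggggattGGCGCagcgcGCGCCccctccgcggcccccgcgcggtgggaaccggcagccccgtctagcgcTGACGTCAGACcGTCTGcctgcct
Ccn1: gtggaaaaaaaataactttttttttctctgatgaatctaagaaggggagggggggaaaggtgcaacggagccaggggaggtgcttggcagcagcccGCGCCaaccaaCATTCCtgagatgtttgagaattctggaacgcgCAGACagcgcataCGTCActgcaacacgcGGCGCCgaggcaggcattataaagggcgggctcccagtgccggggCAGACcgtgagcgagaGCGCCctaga
Tgfb2: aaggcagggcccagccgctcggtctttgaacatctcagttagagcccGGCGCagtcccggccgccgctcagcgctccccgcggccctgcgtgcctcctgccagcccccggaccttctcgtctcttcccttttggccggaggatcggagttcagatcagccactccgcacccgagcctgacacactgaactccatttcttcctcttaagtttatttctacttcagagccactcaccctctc
Ltbp2: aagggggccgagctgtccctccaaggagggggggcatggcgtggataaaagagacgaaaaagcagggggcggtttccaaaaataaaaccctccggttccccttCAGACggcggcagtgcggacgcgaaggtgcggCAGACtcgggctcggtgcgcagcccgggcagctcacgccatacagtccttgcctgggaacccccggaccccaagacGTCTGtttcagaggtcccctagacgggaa
The stretches are chr3:182478630-182478869 for Pmepa1, chr2:237225670-237225909 for Ccn1, chr13:100792666-100792905 for Tgfb2 and chr6:110257279-110257518 for Ltbp2, all on the minus strand.

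Counts were made over the whole window of 300 bases, 250 before the start and 50 from it on, in which GGCGCC counts once on each strand. Pmepa1 had 3 SMAD boxes, of which 2 lie just after the start, and the nearer overlaps a full CRE, TGACGTCA, that spans the start base. Of 27457 rat promoter windows, 4.1% held at least 3 SMAD boxes, 50% at least 1, and 1.9% a full CRE. Pmepa1 and Ccn1 each held 6 GC-rich SMAD sites, a number reached by 3.0% of windows, while 36.2% held at least 1. The Pmepa1 window was 78.0% G and C, against a median of 52.3%.

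Ccn1 held 2 SMAD boxes (15.8% of windows had as many), a TEAD site (13.9% of windows), a CRE half-site (22.0%) and a TATA box, TATAAA, starting 34 bases before the start (14.3%). Tgfb2 held no SMAD box and 1 GC-rich site. Ltbp2, whose level did not pass the test, had 3 SMAD boxes, as many as Pmepa1, and Tgfbi had 5 GC-rich sites and no SMAD box. Tgfb1 held 1 GC-rich site and 1 CRE half-site, and Tgfb3 none of the motifs searched. GC boxes, GGGCGG, stood in 4 of the windows, with 2 each in Pmepa1 and Tgfbi and 1 each in Ltbp2 and Ccn1 (34.9% of all windows held any). No window of the 7 held an AP-1 site (7.3% of all windows) or a CArG box (1.6%). A match describes letters in the window and is not evidence of binding.

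**Figure D4:**
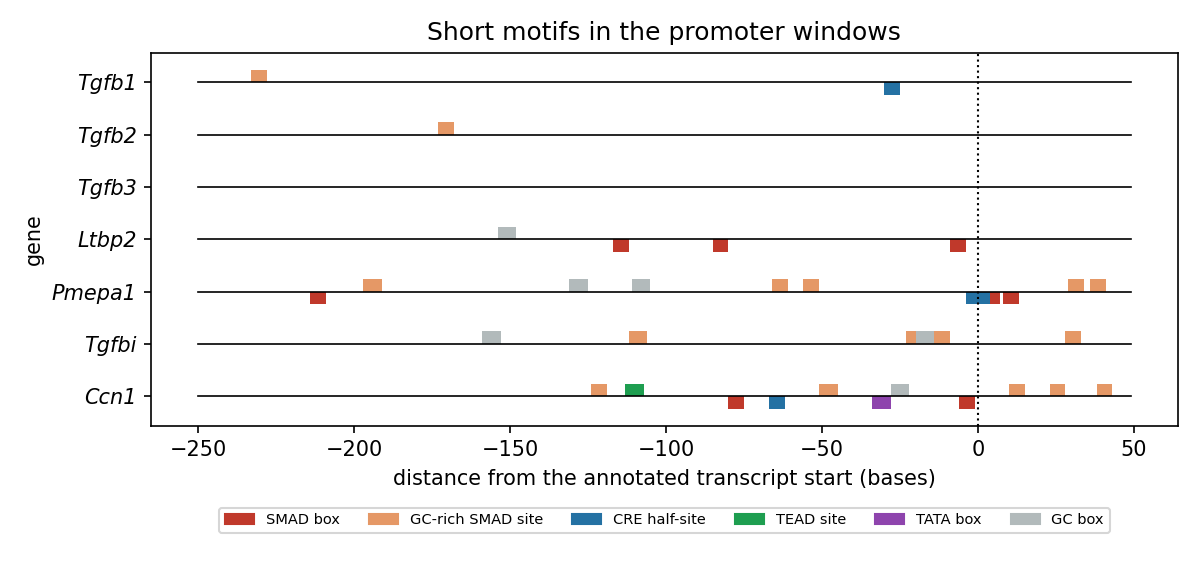
Positions of short motifs in the promoter windows of the 7 genes, as distance in bases from the annotated transcript start (dotted line at 0), on either strand. Boxes are drawn to scale, some colours above and some below each line for legibility. SMAD boxes occur in Ltbp2, Pmepa1 and Ccn1, with 3, 3 and 2 matches, and in none of the ligand genes.

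The 3 calls held without any single array. With any single array left out, Tgfb2 stayed between -1.36 and -1.21, Pmepa1 between 1.44 and 1.66 and Ccn1 between 1.09 and 1.26 on the log2 scale, with highest adjusted p-values of 0.0149, 0.0149 and 0.0190 in limma. The unmoderated test of the same model also called these 3 genes (adjusted p = 0.0241, 0.0303 and 0.0310). Over the 6 leave-outs Tgfb3 ran from -0.33 to 0.21, Tgfbi from -0.34 to 0.005 and Ltbp2 from -0.11 to 0.10, so their direction was not settled. Tgfb1 kept a positive sign, at 0.11 to 0.18.

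**Figure D5:**
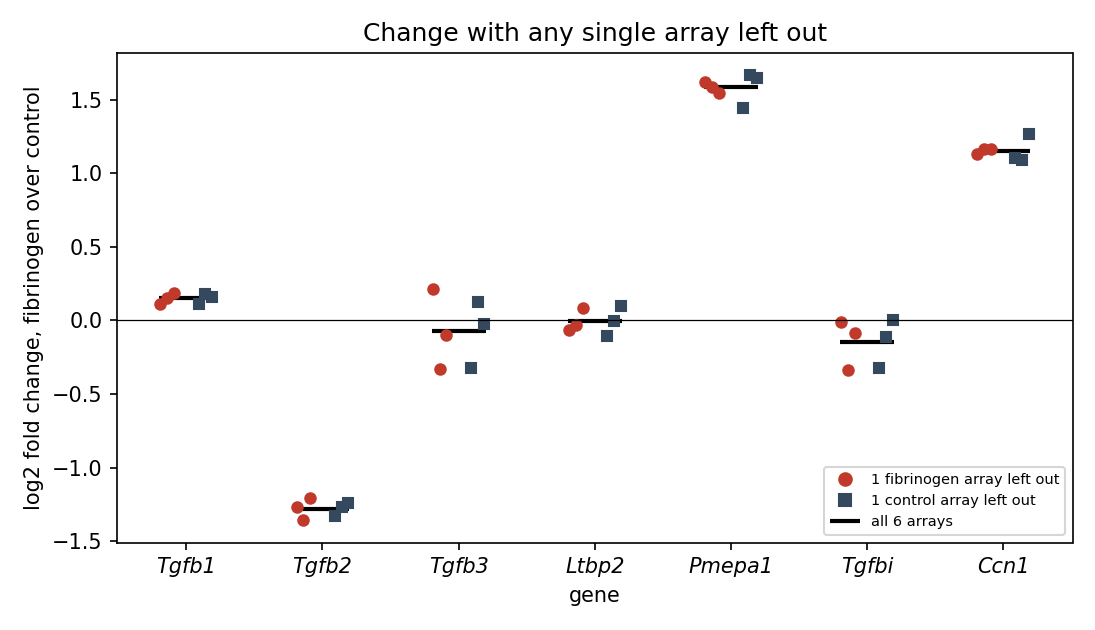
Log2 fold change, fibrinogen over control, of the 7 genes with all 6 arrays (black dash), with 1 fibrinogen array left out (red circles) and with 1 control array left out (dark squares). The points for Tgfb2, Pmepa1 and Ccn1 stay beyond 1 log2 unit from 0, and those for Tgfb3, Tgfbi and Ltbp2 fall on both sides of 0.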

How the data were processed

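Per the labels' protocols, total RNA was column-purified and DNase-treated, then NuGEN whole-transcriptome amplification and biotin labelling preceded hybridisation to Affymetrix rat arrays. The authors deposited log2 expression values per probe set, rounded to 2 decimals. The submitters' processing notes name RMA and limma, with neither version nor role, and a genome build is not given in the sources used here. Among 26312 probe sets, 23631 had a value on every array and 2681 had none. Array medians were 5.78 to 5.84 on the log2 scale, and the number of arrays limits the precision (median SE of a log2 fold change 0.104). RMA compresses large changes of dim probe sets.

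Probe sets were named from the platform annotation. A single symbol was attached to 14083 valued probe sets (14059 found in the current rat gene table), and keeping the brightest per gene gave 13355 genes. Samples were grouped by title. The two-sided moderated test of limma 3.58.1 under R 4.3.3 was fitted over all genes (fibrinogen minus control, without covariates). Benjamini-Hochberg adjustment covered all genes, with a threshold of 0.05. The code was run on simulated arrays with independent normal errors, which does not test the assumptions of the model on these arrays. Lists are described by counts and medians, without a set test. The genes and lists were chosen with earlier results of these data known. Genes named were the 7, 12 fixed pathway genes, the called genes of smallest p in each list (at most 4), and the 3 nearest profiles of each changed gene. Cell type markers were named by their calls, after the values were seen. Other genes are said to be picked afterwards. Alternatives were the array number as a block, median centring, renewed quantile normalization, leaving out the dimmest 25% of genes, averaging probe sets, testing all probe sets, a variance trend, no moderation, array weights and leaving out each array.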

Additional observations from a re-analysis of the deposited data

How the results depend on the processing

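The calls of Tgfb2, Pmepa1 and Ccn1 held under all 15 alternatives run, and no other gene of the 7 was called under any of them, although Tgfb1 and Tgfbi were removed with the dimmest 25% of genes. The count of all called genes was 956 (555 higher, 401 lower). It was 500 without moderation (268 and 232), 343 with the replicate block (199 and 144), 1639 with a variance trend (947 and 692), and 358 to 592 with any single array left out (208 to 379 higher, 150 to 239 lower). With each array centred on its median 434 were higher and 516 lower. Over all probe sets, arrays with the same number did not deviate together (correlations of 0.016, -0.104 and -0.049 for numbers 1, 2 and 3). Single genes can differ from this, as Tgfb3 had its lowest value on array 1 and its highest on array 2 of both groups. Whether arrays of the same number share a preparation is not stated in the labels and was not tested. The replicate block kept the calls of Tgfb2, Pmepa1 and Ccn1 (adjusted p = 0.0238 each), and gave Tgfb3 an SE of 0.09 and an interval of -0.30 to 0.15 (adjusted p = 0.727). Listed genes called numbered 5 for latency and activation, 1 without moderation or with the replicate block, 3 with centring or over all probe sets, and 1 to 4 with an array left out. They numbered 2 for receptors and transducers, 1 without moderation and 1 to 2 with an array left out. Response genes numbered 9, 4 without moderation, 5 with the replicate block and 5 to 9 with an array left out. CCN relatives numbered 0, 1 with a variance trend and 0 to 1 with an array left out. YAP-TEAD and SRF targets numbered 7, and 4 with the replicate block or, at the lowest, 4 to 6 with an array left out. Activin-branch genes numbered 1, 0 with the replicate block, centring or all probe sets, 2 without the dimmest genes, and 0 to 1 with an array left out. Fibrillin and fasciclin relatives numbered 3, 1 without moderation, 5 with a variance trend or array weights, and 2 to 4 with an array left out. Changes that crossed 0 were uncalled throughout. Ltbp2 was at 0.0183 after renewed quantile normalization, Ltbp1 at -0.04 with centring and Smad3 at 0.0002 with array weights. With an array left out the ranges were -0.33 to 0.21 for Tgfb3, -0.34 to 0.005 for Tgfbi, -0.11 to 0.10 for Ltbp2, -0.13 to 0.12 for Ltbp1, -0.10 to 0.0417 for Smad3, -0.0617 to 0.23 for Smad7 and -0.48 to 0.10 for the shift of Tgfb3 minus Tgfb1. The cause was not tested in any of these cases. No depth or detection call accompanies the arrays, so dim probe sets such as those of Tgfb1, Tgfbi and Ltbp2 limit what a missing change can show.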
